A study of Homo sapiens with 3 samples.

Results

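The genes that encode collagen chains were followed in polyadenylated RNA of LX-2, an established line of human hepatic stellate cells, given vehicle or recombinant human FGF19 (rhFGF19). Members were all genes whose symbol is COL, a number, A and a number. This gave 31 genes of the 26108 listed, with no measured value used in the choice. The groups were vehicle, 50 ng/mL rhFGF19 and 100 ng/mL rhFGF19, with 1 library each, so every difference is between single libraries and has no replicate check. The study's design text gives 24 h of stimulation, whereas the samples' description fields state 72 h and 73 h, with the doses the other way round. The groups here follow the titles and the agent field, and an exchange would swap the rhFGF19 libraries without touching the vehicle library. LX-2 is a single line cultured without other liver cells.

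Collagens are proteins of 3 chains wound around each other, and each chain carries long stretches in which glycine returns at every Gly-X-Y triplet. Fibrillar collagens (among the genes analysed, types I, II, III, V, XI and XXVII) include those that pack into the cross-banded fibres of scar and tendon. Type IV forms the network of basement membranes. FACIT collagens, whose helices are interrupted, sit on the surface of fibrils. The remaining types include the beaded filaments of type VI, the anchoring fibrils of type VII, the multiplexins XV and XVIII and chains that span the cell membrane. Stellate cells are the main collagen makers of the injured liver, where types I and III build the scar.

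The Gly-X-Y repeat can be read from the coding sequence, because each of the glycine codons begins with GG. In the GENCODE 29 transcript with the longest coding sequence, every one of the 31 genes held a run of at least 20 consecutive triplets opened by a GGN codon, and 68 of all 19522 coding genes did, 0.348%. The run reached 343 triplets in COL3A1 and 338 in COL1A1, where it spans nearly the whole helix, against 87 in COL6A1 and COL6A2 and 32 in COL12A1. The lowest was 23, in COL26A1. The exons mirror the repeat. Of the 523 coding exons that lay wholly inside these runs, 517 were a multiple of 9 bases long, the length of 1 triplet. In COL1A1, 21 of 49 internal coding exons were exactly 54 bases, as were 24 of 49 in COL3A1, compared with 0.699% of the internal coding exons of all genes. Type IV genes held few such exons (2 of 50 in COL4A1).

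Stretches from 1 helical exon each are shown for chains that span the range of the measured differences, with the glycine codon that opens each triplet in capitals. They are read from GENCODE 29 (GRCh38), 5′ to 3′ along the mRNA, from the first whole triplet of the exon. COL12A1 lies on the minus strand at chr6:75101999-75102052, COL4A1 on the minus strand at chr13:110213926-110214015, COL4A2 on the plus strand at chr13:110478011-110478100, COL5A1 on the plus strand at chr9:134753850-134753903 and COL6A2 on the plus strand at chr21:46115872-46115925.
COL12A1: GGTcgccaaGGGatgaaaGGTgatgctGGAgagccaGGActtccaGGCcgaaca
COL4A1: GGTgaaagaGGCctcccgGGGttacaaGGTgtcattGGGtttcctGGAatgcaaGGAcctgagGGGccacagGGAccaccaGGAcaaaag
COL4A2: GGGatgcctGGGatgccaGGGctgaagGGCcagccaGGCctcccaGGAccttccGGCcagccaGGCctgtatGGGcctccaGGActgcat
COL5A1: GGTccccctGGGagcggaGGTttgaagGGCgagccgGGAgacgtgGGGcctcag
COL6A2: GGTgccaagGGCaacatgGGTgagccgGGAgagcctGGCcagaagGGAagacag
The opening codons begin alike in all 5, and the chains part in the last base of these codons and in the bases between them. The GC content was 59.3% in the COL12A1 stretch, 57.8% in COL4A1, 68.9% in COL4A2, 72.2% in COL5A1 and 64.8% in COL6A2. Over the whole coding sequence it was 46.6%, 60.2%, 63.2%, 64.4% and 65.6% in the same order.

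Values are FPKM, fragments counted per length of transcript and per size of the library, so levels of different genes can be set side by side within a library. They hold no read counts and the depth is unknown. Where 3 values stand together below, they are those of vehicle, 50 ng/mL and 100 ng/mL in this order, and where a pair of fold changes does, those of 50 and 100 ng/mL. The values summed to 302243, 276690 and 281606. Fold changes are on the log2(FPKM + 0.1) scale, on which low genes appear to change less than they do, for the 12422 gene symbols that averaged 0.5 FPKM or more. Their median difference from vehicle was 0.62 at each dose. Of 12 markers of stellate cells and myofibroblasts, 11 were listed and summed to between 1050 and 1080 FPKM per library, while DES, LRAT and LUM stayed under 0.1 FPKM in all of them. Within that sum VIM (438.65, 654.31 and 648.66) and SPARC were higher with rhFGF19 and TAGLN (222.65, 118.02 and 125.65), TIMP1 and THY1 lower, none by 2-fold. The markers of other cells summed to 11.3 to 12.5 FPKM for hepatocytes, 42.4 to 51.8 for blood cells (CD68 and CD14), 4.92 to 10.1 for cartilage, 0.28 to 0.48 for epidermis, 0.4 to 0.5 for endothelium and 0 to 0.12 for epithelium. In the cartilage list SOX9 carried nearly all of the sum, and ACAN and MATN1 were under 0.1 FPKM. In bulk RNA, fewer cells of a type and less RNA per cell cannot be told apart.

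Of the 31 chains, 19 passed the filter and 12 did not. The vehicle library was led by COL6A2, COL1A1 and COL6A1, which together made up 64.2% of the summed collagen FPKM there and 55% and 55.4% in the rhFGF19 libraries. COL6A2 stood at percentile 98.6 of all gene symbols in vehicle and COL1A1 at 97.2. The 12 chains that did not pass lay between 0 and 0.47 FPKM in every library. Among them were the other chain of type I (COL1A2), the cartilage collagen COL2A1, both type IX chains listed (COL9A2, COL9A3), COL10A1 of growth-plate cartilage, COL4A4, COL5A3, COL8A2, COL11A2, COL15A1, COL25A1 and COL26A1. Just below the filter of 0.5 FPKM stood COL5A3 and COL11A2, with means of 0.403 and 0.4, and COL9A2 with 0.33. The nearest above it were COL16A1 with 1.2 and COL4A6 and COL27A1 with 1.22, so no chain sat close to it from above. A list of 44 chains had been drawn up, and the other 13 (COL4A3, COL6A5, COL6A6, COL9A1, COL11A1, COL14A1, COL19A1, COL20A1, COL21A1, COL22A1, COL23A1, COL24A1 and COL28A1) were not analysed here.

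**Figure D1:**
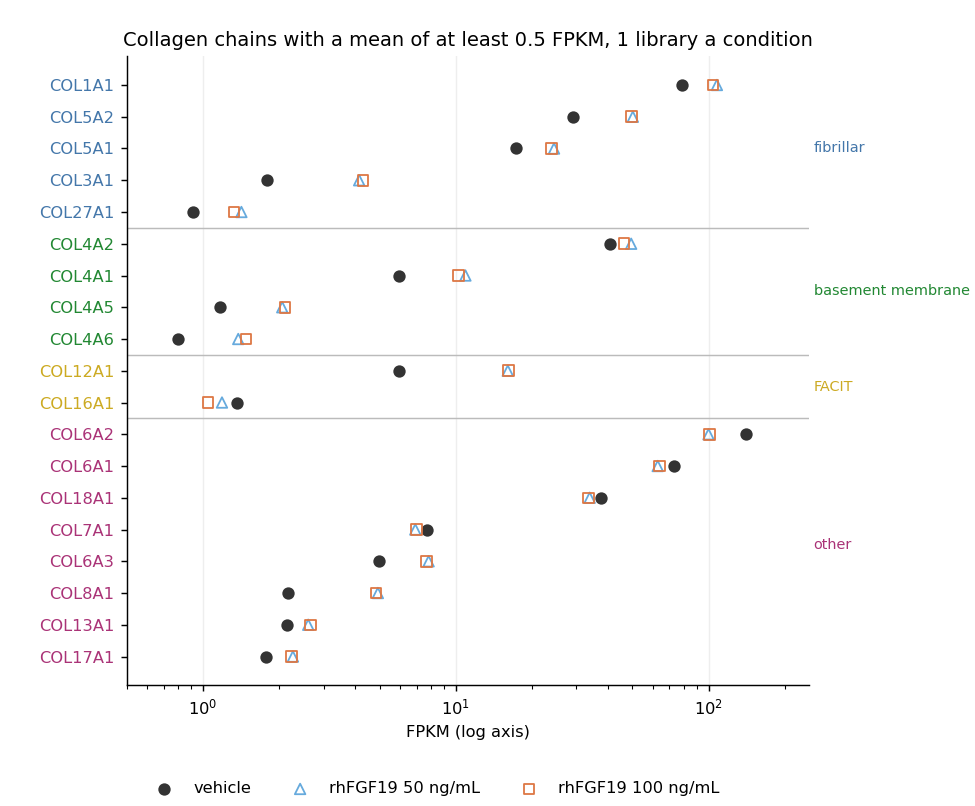
FPKM (log axis) of the 19 collagen chains with a mean of at least 0.5 FPKM in the vehicle library (filled circles), at 50 ng/mL (triangles) and at 100 ng/mL rhFGF19 (squares), grouped by class with 1 library a condition. The rhFGF19 symbols lie on or near each other for each chain, to the right of vehicle in 14 chains and to the left in COL6A1, COL6A2, COL7A1, COL16A1 and COL18A1.

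The first comparison asked how far each chain in the rhFGF19 libraries stood from vehicle. In both rhFGF19 libraries 14 of the 19 chains (73.7%) were above vehicle and 5 were below it, near the 65.6% and 65.8% of all symbols above it. At each dose 10 chains were above it under quantile normalization, and 3 once a length trend was taken out. For these settings the share of all symbols above vehicle was not counted, so 10 and 3 have no such figure beside them. The median of all symbols at 50 ng/mL fell there from 0.62 to 0.10 and 0.04. More than 2-fold higher were 3 chains at 50 ng/mL and the same 3 at 100 ng/mL: COL12A1, COL3A1 and COL8A1. These are 15.8% of the 19 chains, below the 39.5% of all tested symbols that were more than 2-fold higher at 50 ng/mL and the 38.6% at 100 ng/mL. No chain was more than 2-fold lower, beside 1.75% of all symbols at 50 ng/mL and 1.47% at 100 ng/mL. Median log2 fold changes of the chains were 0.50 and 0.47, under the 0.62 of all symbols. This order turned at both doses without the filter (0.38 against 0.31 at 50 ng/mL) and in each setting that removed a GC trend. Those gave 0.37 (GC), 0.23 (GC and length) and 0.25 (GC of listed transcripts) at 50 ng/mL, where all symbols were at most 0.01. With a pseudocount of 1 it turned at 100 ng/mL alone (0.41 against 0.40). Both comparisons share the single vehicle library.

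The rhFGF19 libraries barely differed from each other in these genes. The largest difference between 100 and 50 ng/mL among the 19 chains was 0.17 on the log2 scale, in COL16A1. The median absolute difference was 0.029, against 0.089 over all symbols. The 2 sets were not matched for level: the lowest of these chains averaged 1.2 FPKM, while all symbols reach down to 0.5. None of the chains was more than 2-fold apart between the doses, beside 1.64% of all symbols. All 19 chains were on the same side of vehicle at both doses. Both differences are taken from the same vehicle library, and the share of all symbols for which this held was not counted.

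All 5 fibrillar chains that passed were above vehicle, beside 65.6% and 65.8% of all symbols at 50 and 100 ng/mL. The direction turned for COL27A1 with quantile normalization, for all but COL3A1 with the length trend removed, for COL5A2 in each setting that removed a GC trend, and for COL3A1 where that trend used the listed transcripts. COL1A1 (ENSG00000108821, chromosome 17 from 50184101 to 50201632), the main chain of scar collagen, had 78.35, 107.83 and 104.14 FPKM. It stood higher in both rhFGF19 libraries, by 0.46 and 0.41 on the log2 scale, which is under 2-fold. Its usual partner, COL1A2 (ENSG00000164692, chromosome 7 from 94394895 to 94431227), was listed at 0.03, 0.10 and 0.14 FPKM. Type I collagen is normally built from 2 chains of COL1A1 and 1 of COL1A2, and in all 3 libraries the transcript of the first was abundant while that of the second was close to 0. The table's values are too coarse at this level for a ratio to be given.

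COL3A1 (ENSG00000168542, chromosome 2 from 188974373 to 189012746) encodes the homotrimeric collagen that accompanies type I in soft tissue. It had 1.79, 4.15 and 4.30 FPKM. The rhFGF19 libraries lay close together and more than 2-fold above vehicle, by 1.17 and 1.22 on the log2 scale. The level of COL1A1 was 43.8, 26.0 and 24.2 times that of COL3A1. The transcript of COL1A1 had 61.1% GC and that of COL3A1 52.1%. With the GC trend removed COL1A1 stood at 0.83 and 0.77 on the log2 scale, and COL3A1 at 0.69 and 0.76. The part of base composition in this ratio was not tested.

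Type V chains are woven into type I fibrils and limit their width. COL5A2 had 28.97, 50.15 and 49.63 FPKM and COL5A1 had 17.28, 24.47 and 23.90. Their log2 fold changes were 0.79 and 0.77 for COL5A2 and 0.50 and 0.47 for COL5A1, so the ratio of COL5A2 to COL5A1 moved from 1.68 in vehicle to 2.05 and 2.08. COL5A2 lies 19.2 kb from COL3A1 on chromosome 2, on the other strand, with the gene ends facing each other. COL27A1, a later addition to the fibrillar class, had 0.91, 1.42 and 1.33 FPKM.

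In the basement membrane class all 4 chains that passed were above vehicle, beside 65.6% and 65.8% of all symbols at 50 and 100 ng/mL. None was more than 2-fold higher, where 39.5% and 38.6% of all symbols were. The direction turned for COL4A5 and COL4A6 with quantile normalization and for all 4 with the length trend removed. For COL4A5 it also turned with the GC trend on listed transcripts, and at 50 ng/mL alone with both trends removed. For COL4A2 it turned at 100 ng/mL alone, to -0.04, with libraries scaled to a median ratio of 1. COL4A1 (ENSG00000187498) had 5.99, 10.92 and 10.25 FPKM. COL4A2 (ENSG00000134871), its partner in the common α1α1α2 protomer, had 40.92, 49.39 and 46.33 FPKM. The log2 fold changes were 0.86 and 0.77 for COL4A1 but only 0.27 and 0.18 for COL4A2, and the ratio of COL4A2 to COL4A1 went from 6.83 in vehicle to 4.52 in both rhFGF19 libraries. COL4A5, mutated in Alport syndrome, had 1.17, 2.06 and 2.11 FPKM, and its neighbour COL4A6 had 0.80, 1.38 and 1.48. Their ratio barely moved, at 1.46, 1.49 and 1.43.

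These type IV genes form divergent pairs, and the sequence between their starts is shown because each pair of chains is transcribed away from it. In the deposited coordinates COL4A1 (minus strand) and COL4A2 (plus strand) overlap by 1.35 kb on chromosome 13, and COL4A6 and COL4A5 lie 340 bases apart on the X chromosome. RefSeq (GRCh38.p14) places 126 bases between the starts of COL4A1 and COL4A2, at chr13:110307158-110307283, and the 250 bases before the COL4A5 start, at chrX:108439588-108439837, fall within the gap to COL4A6. Both are written 5′ to 3′ on the plus strand, with CCAAT (or ATTGG, the same motif on the other strand) and GGGCGG in capitals.
COL4A1 and COL4A2: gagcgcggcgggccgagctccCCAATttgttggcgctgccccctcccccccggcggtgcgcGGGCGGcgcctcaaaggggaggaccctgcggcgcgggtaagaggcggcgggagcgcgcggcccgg
COL4A6 and COL4A5: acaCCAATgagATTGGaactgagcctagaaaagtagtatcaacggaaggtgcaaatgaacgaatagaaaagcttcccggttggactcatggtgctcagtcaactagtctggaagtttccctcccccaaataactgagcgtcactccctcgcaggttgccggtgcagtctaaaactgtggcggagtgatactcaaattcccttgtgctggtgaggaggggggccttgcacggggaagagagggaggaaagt
The interval between COL4A1 and COL4A2 had a GC content of 80.2% and 20 CpG sites, and the stretch before COL4A5 51.2% and 8. A CCAAT box stands in both and GGGCGG, the core of a GC box, in the first. In RefSeq windows of 250 bases before to 50 after a gene start, searched on both strands, CCAAT was found in 34.6% of 35116 windows and GGGCGG in 45%. Of the 31 windows listed for 23 of the collagen genes, 11 held CCAAT and 18 held GGGCGG.

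The FACIT class held the chain with the largest difference. COL12A1 (ENSG00000111799, chromosome 6 from 75084326 to 75206053) encodes a long chain that binds along type I fibrils in tissue under load. It had 5.98, 16.06 and 16.20 FPKM, with vehicle alone low and a difference of 1.41 and 1.42 on the log2 scale. Its place among all gene symbols moved from percentile 81.7 to 88.8 in each rhFGF19 library. COL16A1, another fibril-associated chain, had 1.36, 1.19 and 1.05 FPKM and lay below vehicle, by 0.18 and 0.34 on the log2 scale, but 0.27 and 0.09 above genes of like GC content. The type IX chains COL9A2 and COL9A3 stayed at or under 0.38 FPKM in every library.

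Among the other collagens, the type VI chains parted. COL6A2 (ENSG00000142173, chromosome 21 from 46098112 to 46132848) had 140.51, 99.91 and 100.75 FPKM, the first being the highest level of any chain. COL6A1 had 73.21, 62.90 and 64.06 FPKM. COL6A3, the long chain that completes the heterotrimer, had 4.98, 7.81 and 7.65. The first pair were thus below vehicle (log2 fold changes of -0.49 and -0.48 for COL6A2, -0.22 and -0.19 for COL6A1) and COL6A3 above it (0.64 and 0.61). With quantile normalization they differed from vehicle at 50 ng/mL by -0.21, 0.00 and 0.09 in this order, and with the length trend removed all of them lay below it. With the GC trend removed they no longer parted, at 0.07, 0.26 and 0.32. The level of COL6A1 was 14.7 times that of COL6A3 in vehicle and 8.05 and 8.37 times that in the rhFGF19 libraries. COL6A1 and COL6A2 lie 93.1 kb apart on chromosome 21 and point the same way.

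COL8A1 (ENSG00000144810, chromosome 3 from 99638475 to 99799217), a short chain found around vessels, had 2.18, 4.92 and 4.83 FPKM, more than 2-fold above vehicle by 1.14 and 1.11 on the log2 scale. Its partner COL8A2 was below the filter, at 0.09, 0.30 and 0.10 FPKM. COL18A1, whose end fragment is endostatin, had 37.49, 33.86 and 33.49 FPKM, and COL7A1, the chain of the anchoring fibrils under the epidermis, had 7.67, 6.92 and 7.01. Both lay slightly below vehicle, by between 0.13 and 0.16 on the log2 scale, although COL18A1 was 0.05 above it at 50 ng/mL with quantile normalization. With the GC trend removed COL18A1 and COL7A1 were at 0.44 and 0.37. The transmembrane chains stood slightly above vehicle, and below it with quantile normalization or the length trend removed, as was COL17A1 with the GC trend on listed transcripts. COL13A1 had 2.16, 2.61 and 2.66 FPKM and COL17A1, a hemidesmosome protein, 1.77, 2.27 and 2.24.

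Summed by class, the fibrillar chains gave 128, 189 and 185 FPKM, ratios to vehicle of 1.47 and 1.44. The basement membrane chains gave 48.9, 63.8 and 60.2 FPKM, with ratios of 1.3 and 1.23. The FACIT chains gave 7.72, 17.5 and 17.7, of which COL12A1 held 5.98, 16.06 and 16.20, with ratios of 2.27 and 2.29. The sum of the other collagens went the opposite way, with 270, 222 and 223 FPKM and ratios of 0.82 and 0.825. Type VI alone accounted for 219, 171 and 172 of these sums. Chain by chain, 4 of the 8 tested others lay above vehicle and 4 below it at each dose, with median log2 fold changes of 0.06 and 0.08. COL6A2, COL6A1 and COL18A1, the most abundant of them, had 66.4%, 63.5% and 67.2% GC. With the GC trend removed they stood at 0.07, 0.26 and 0.44 at 50 ng/mL. The part of base composition in the class sums was not tested. All 31 chains together summed to 455, 492 and 485 FPKM. The fibrillar share of collagen FPKM was 28.2%, 38.4% and 38%, and that of the other collagens 59.4%, 45% and 45.9%. With 1 library a condition, no error can be put on these shares.

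**Figure D2:**
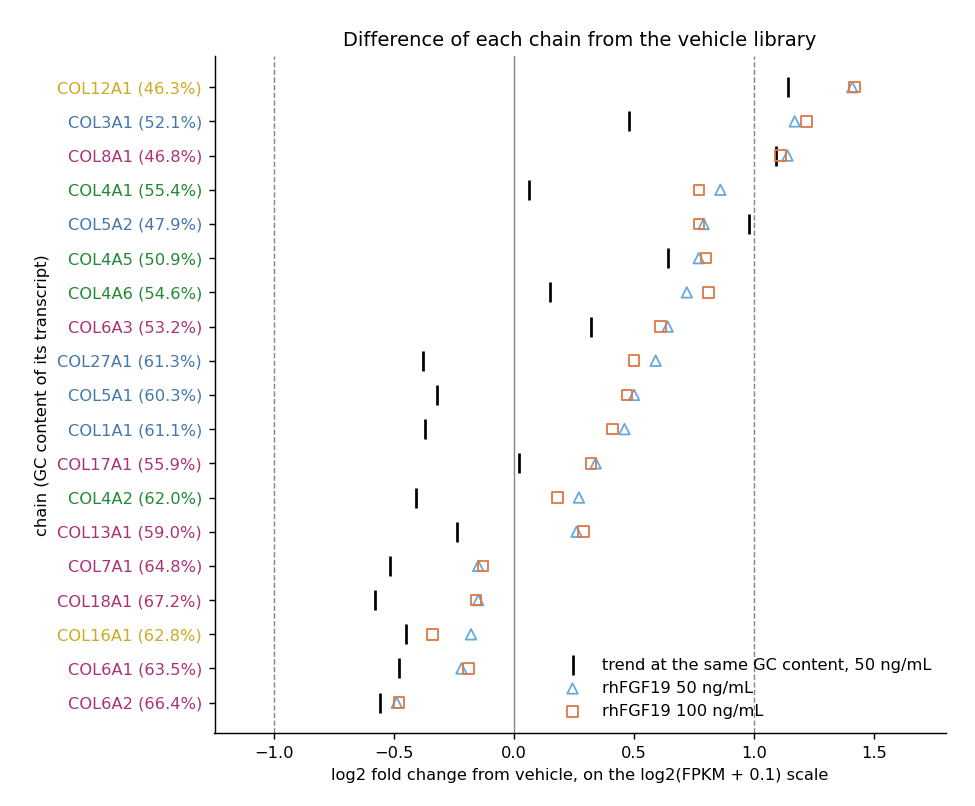
Log2 fold change from vehicle of each chain at 50 ng/mL (triangles) and 100 ng/mL rhFGF19 (squares) on the log2(FPKM + 0.1) scale, ordered by the 50 ng/mL value, with the GC content of the transcript in brackets and a bar at the value that all tested genes of the same GC content follow at 50 ng/mL. Dashed lines mark 2-fold, which COL12A1, COL3A1 and COL8A1 pass. To the right of their bar lie 18 of the 19 chains, where the median of all symbols is 0.01 from the trend.

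The order of the chains followed the base composition of their transcripts. Across the 12400 tested symbols with a known transcript, the fold change from vehicle was lower at higher GC content, with Spearman correlations of -0.77 and -0.78, and the correlation was 0.07 for the difference between the rhFGF19 libraries. Across the 19 chains it was -0.91 and -0.92, and -0.24 between the rhFGF19 libraries. These are descriptions across genes of the same libraries, which share the single vehicle value and are not independent. GC content here is that of the transcript with the longest coding sequence. It ranged from 46.3% in COL12A1 to 67.2% in COL18A1, with a median of 59.0% over the chains and 50.9% over all symbols.

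The 3 chains under 50% GC (COL12A1, COL5A2 and COL8A1) had log2 fold changes between 0.79 and 1.41 at 50 ng/mL, with a median of 1.14, where all symbols under 50% had 1.33. The 7 chains between 50 and 60% ranged from 0.26 to 1.17 with a median of 0.72, where all such symbols had 0.07. The 9 chains of 60% or more ranged from -0.49 to 0.59 with a median of -0.15, against -0.51. The medians of the chains of intermediate and high GC content were thus above those of all symbols in the same range, and that of the 3 chains under 50% was below it.

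Within types IV (COL4A1 and COL4A2), V and VI the partner chains followed the same order. In type VI the transcripts of COL6A2 and COL6A1 had 66.4% and 63.5% GC and lay below vehicle, and that of COL6A3 had 53.2% and lay above it. In type IV COL4A2 had 62.0% and COL4A1 55.4%, and in type V COL5A1 had 60.3% and COL5A2 47.9%. In each of these the chain of lower GC content had the larger log2 fold change at both doses. The pair of COL4A5 (50.9% GC) and COL4A6 (54.6%) did not follow it, with 0.77 and 0.72 at 50 ng/mL but 0.80 and 0.81 at 100 ng/mL. The part of base composition in the partner ratios was not tested, and a property of the vehicle library and a response to rhFGF19 cannot be told apart, because vehicle is 1 library.

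Each chain was therefore also set against a trend of the fold change on GC content fitted over all tested symbols. At each dose 18 of the 19 chains lay above the trend, and COL5A2 lay 0.19 below it at each dose. The median of all symbols was 0.01 from the trend at 50 ng/mL and 0.00 at 100 ng/mL, so they fell about evenly on either side. The fibrillar chains COL27A1, COL1A1 and COL5A1 stood highest above it at 50 ng/mL, by 0.97, 0.83 and 0.82 on the log2 scale, followed by COL4A1 with 0.79, COL3A1 with 0.69 and COL4A2 with 0.68. COL12A1, with the largest fold change as measured, was 0.27 above it, COL8A1 0.04 and COL6A2 0.07. At 100 ng/mL COL27A1 stood 0.87 above and COL1A1, COL5A1 and COL3A1 0.77, 0.77 and 0.76. No chain was more than 2-fold from the trend at either dose, where 3.31% of all symbols lay that far above it and 5.26% below it at 50 ng/mL. The transcripts of the chains were also long, with a median of 6586 bases against 2584.5 for all symbols, and with a trend on length removed instead, no chain was more than 2-fold higher and 5 were more than 2-fold lower at each dose. Under that setting 12.3% of all symbols were more than 2-fold higher and 12.9% lower at 50 ng/mL. When GC content was instead the median over all transcripts listed for a gene, many of them short fragments, 14 of the 19 chains lay above the trend. The median of all symbols was again 0.01 and 0.00 from it. COL3A1, at 40.6% by that measure, lay 0.29 below it at 50 ng/mL.

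The genes that make, export, cross-link and bind collagen were counted by the same measure. Of the 14 tested genes for modification and folding of the chains, 3 (21.4%, beside 39.5% and 38.6% of all symbols) were more than 2-fold higher at each dose and none was lower (1.75% and 1.47% of all symbols), and the group's median was -0.29 on the log2 scale at 50 ng/mL. The 3 were P4HA1, a catalytic subunit of prolyl 4-hydroxylase (1.06, 3.38 and 4.09 FPKM), the lysyl hydroxylase PLOD2 (1.84, 6.24 and 5.83) and the prolyl 3-hydroxylase P3H2 (1.15, 2.99 and 2.83). The abundant partner of prolyl 4-hydroxylase, P4HB, had 410.89, 339.33 and 330.65 FPKM. The collagen chaperone SERPINH1, also called HSP47, had 44.50, 41.68 and 42.16. Members of the same enzyme families stood on either side of vehicle. The more abundant P4HA2 (29.84, 27.11 and 26.46 FPKM) and PLOD1 (87.12, 60.97 and 60.31) lay below it. In all, 10 of the 14 genes lay below vehicle at each dose. Of all 12422 symbols, 4265 did at 50 ng/mL and 4233 at 100 ng/mL. Transcript GC content was 40.9% for P4HA1, 37.6% for PLOD2 and 51% for P3H2. It was 52.4% for P4HA2, 58.6% for PLOD1, 58.4% for P4HB and 59.3% for SERPINH1.

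Of the 5 tested export genes, 4 (80%) were more than 2-fold higher at both doses, as were 4503 of all 12422 symbols. At the single doses 39.5% and 38.6% of all symbols were. The group's median was 1.55 on the log2 scale at 50 ng/mL. The 4 genes were SEC23A and SEC24D of the COPII coat, MIA3, which loads procollagen into carriers, and KLHL12. SEC23A, for example, had 2.37, 8.37 and 8.05 FPKM. The remaining tested gene of this list, TANGO2, had 9.92, 6.73 and 6.32 FPKM and lay below vehicle, by log2 fold changes of -0.55 and -0.64. Whether TANGO2 acts in collagen export was not examined, and the share and median of the list include it. Among 3 tested genes for removal of the propeptides, TLL1 alone (33.3%) was more than 2-fold higher at each dose (0.30, 1.19 and 1.20 FPKM). TLL1 was under the filter value in vehicle and was tested only because of its rhFGF19 values. The main procollagen C-proteinase BMP1 had 20.70, 18.44 and 16.42. Of 5 cross-linking enzymes, LOX alone (20%) was more than 2-fold higher at both doses (1.90, 4.33 and 4.39 FPKM). Both shares are below those of all symbols. LOXL2, the most abundant of them, had 135.82, 136.66 and 127.62.

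Of the 6 tested receptors, 4 (66.7%) were more than 2-fold higher at both doses, as were 4503 of all 12422 symbols, and the group's median was 1.27 at each dose. These were the integrin subunits ITGB1 (18.31, 59.30 and 59.79 FPKM), ITGA2 (3.50, 9.32 and 9.58) and ITGA1 (0.25, 0.84 and 0.80) and the collagen-binding kinase DDR2 (1.36, 3.13 and 3.19). Of these, ITGA1 was under the filter value in vehicle and was tested only because of its rhFGF19 values. The uptake receptor MRC2 had 28.77, 30.58 and 30.34. None of the 4 tested collagenases and gelatinases was more than 2-fold away from vehicle. Interstitial collagenase MMP1 had 123.83, 210.31 and 218.17 FPKM, a log2 fold change of 0.76 and 0.82, and MMP14 had 86.94, 87.18 and 86.80. The shares of the export and receptor lists rest on 5 and 6 genes. The receptor and export genes past 2-fold had transcript GC contents between 38.5% and 49.9%, and the part of base composition in these counts was not tested.

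**Figure D3:**
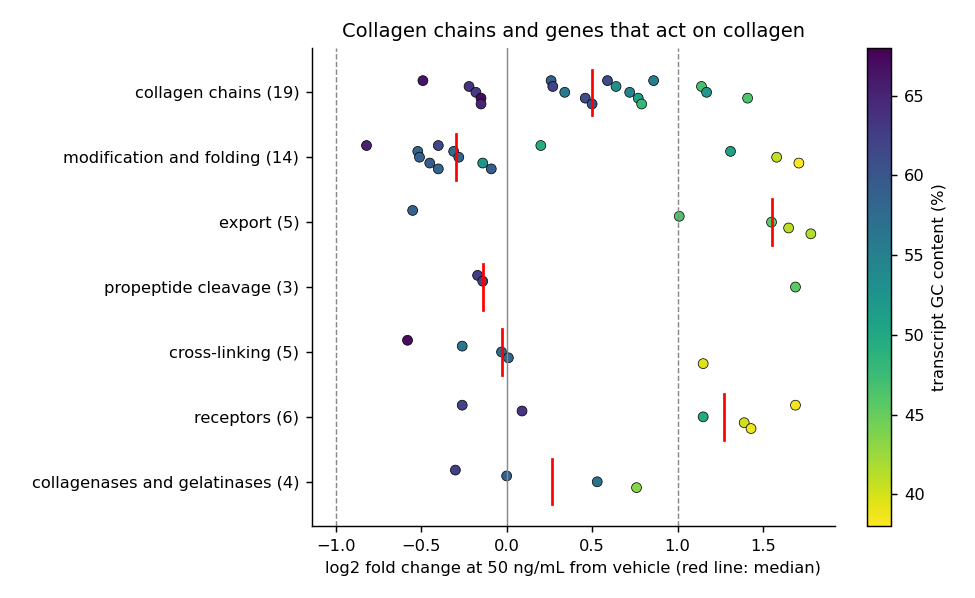
Log2 fold change from vehicle at 50 ng/mL rhFGF19 for the tested genes of 7 groups (points; number of genes in brackets; red line, median), coloured by the GC content of the transcript, with dashed lines at 2-fold. Most points to the right of 2-fold are of low GC content, and the medians run from -0.29 for modification and folding to 1.55 for export.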

How the data were processed

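LX-2 mRNA was sequenced by the authors in 3 libraries, 1 each for vehicle, 50 and 100 ng/mL rhFGF19. The reads were mapped with HISAT2, and the authors deposited 1 FPKM value per gene and library, to 2 decimals. The submitters' processing notes name HISAT2 2.0, StringTie 1.3.0 and Bowtie 0.12.2, with the builds hg19 and mm8, without roles; the table's coordinates overlapped GRCh38 for 31 of 31 chains. The program behind the FPKM values is not given in the sources used here.

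From these values, rows with the same symbol were summed and log2(FPKM + 0.1) was compared between libraries for symbols averaging 0.5 FPKM or more. A gene was counted past 2-fold, the study's criterion, at an absolute log2 fold change above 1. No p-values were computed with 1 library a group, and no interval is possible without counts. FPKM estimates of low genes are less certain than their decimals show. GC content, length and exons came from GENCODE 29, using the transcript with the longest coding sequence (listed transcripts for non-coding genes), and were found for 99.8% of tested symbols. The median over all listed transcripts was replaced as the main measure after the values were seen, since it rests on short fragments in collagen genes, and is kept as an alternative. Trends were lowess fits over all tested symbols (span 0.3). Promoter sequences came from RefSeq.

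The members and gene lists were chosen with earlier results of these data known. Every chain with a mean of at least 0.5 FPKM was named, with those within 0.25 FPKM of the filter. In the pathway lists those past 2-fold at both doses and up to 4 others were named. Tried as alternatives were 11 settings, and 2 more were added after the data had been seen. The software was Python 3.11.15, NumPy 2.4.6, pandas 2.3.3, SciPy 1.17.1, statsmodels 0.14.6 and Matplotlib 3.10.9, and the scripts were tested on simulated data.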

Additional observations from a re-analysis of the deposited data

How the results depend on the processing

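The number of chains more than 2-fold higher was 3 at each dose. It was 1 at each dose with a pseudocount of 1 and with quantile normalization, and 1 at 50 ng/mL with libraries scaled to a median ratio of 1. The share of all symbols shifted as well, from 39.5% at 50 ng/mL to 17.6%, 9.19% and 30.4% in this order. No chain, 0 of 19, was called higher with the trend on GC content, on length or on both removed or with a log2 threshold of 1.5, and 9 were with a threshold of 0.5, at each dose. In these settings 3.31% (GC), 12.3% (length), 3.98% (both), 16.4% (threshold 1.5) and 53% (threshold 0.5) of all symbols were called higher at 50 ng/mL. The number more than 2-fold lower was 0, and it was 1 at each dose with quantile normalization and 5 at each dose with the length trend removed, where 9.85% and 12.9% of all symbols were called lower at 50 ng/mL. The trends centre the fold changes, so directions under them are relative to genes of like GC content or length. The cause of the other shifts was not tested.

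The median log2 fold change of the chains at 50 and 100 ng/mL was 0.50 and 0.47. It was 0.40 and 0.41 with a pseudocount of 1, 0.38 and 0.32 without a filter, which adds the 12 low chains, 0.27 and 0.24 with that median scaling, 0.63 and 0.57 with TPM and 0.05 and 0.03 with quantile normalization. It was 0.37 at each dose with the GC trend removed, -0.49 and -0.56 with the length trend removed, 0.23 and 0.24 with both removed, and 0.25 and 0.15 with the GC trend on the median over listed transcripts. The last pair of settings was added after seeing the data. The scalings moved all symbols too, from a median of 0.62 at 50 ng/mL to 0.40 (median scaling), 0.77 (TPM) and 0.10 (quantile), and the chains lay 0.13, 0.15 and 0.05 under these. Without a filter they lay 0.07 above all symbols, and with the GC trend removed 0.36 above. With both trends removed and with the GC trend on listed transcripts they lay 0.23 and 0.24 above. COL12A1 was the only chain that kept its direction under all 11 alternatives with the same threshold, between 0.15 and 1.55 at 50 ng/mL. Of these, the 2 on the filter leave its value as it is and the 2 on the pseudocount cannot change a direction. COL8A1 changed direction with both trends removed, to -0.12 and -0.13, and COL3A1 with the listed-transcript GC content, to -0.29 and -0.23. No paired analysis was possible because each condition has 1 library. Depth limits every low chain, and it is unknown.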

Other observations

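Genes named for their link to collagen, without being chains, were chosen for description after their values were seen. The antisense transcripts at type IV and type V loci were near 0. In the order vehicle, 50 and 100 ng/mL, COL4A2-AS1 had 0.15, 0.10 and 0.11 FPKM, COL4A2-AS2 at 0, 0.04 and 0, and COL5A1-AS1 at 0, 0.35 and 0.11. COLQ, the collagen-like tail of acetylcholinesterase, had 0.03, 0.16 and 0.13 FPKM and the collectin COLEC11 0.05, 0.04 and 0. COLGALT1, which adds galactose to hydroxylysine in collagen, was abundant at 49.14, 37.17 and 36.65 FPKM.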
